A study of Mus musculus with 6 samples.

Results

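The genes described here are 9 long non-coding RNAs of the mouse, picked by name from the count table because Malat1 was high in the Dox libraries. They are 9 of the 40808 gene IDs in the table and 9 of the 14110 that had enough counts to be tested. Of these, 3 are RNAs that stay in the nucleus (Malat1, Neat1 and Kcnq1ot1), 5 are spliced RNAs whose introns carry small nucleolar RNAs (Gas5, Snhg1, Snhg3, Snhg8 and Snhg12), and 1 is the host of a microRNA pair (Dleu2). The Dox contrast chose them, so their differences are given as a description. Whether each passed the threshold of the fit over all genes is stated, but it is no independent test of genes chosen this way.

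The libraries were made from leukaemia cells of the spleen of bone marrow transplanted mice, 3 without Dox (replicates 4, 5 and 6) and 3 with Dox (replicates 10, 11 and 12). All 6 came from spleen, and the labels name no other difference between the groups. Marker genes of cell types and sex-linked genes differed between the groups, as given below. The groups are thus not taken to hold the same cells, or leukaemia cells alone. The series is about how UVRAG and ITCH act on NOTCH receptors. The labels do not spell out Dox and do not state its dose, its duration, the gene it controls, the strain, sex or age of the mice, or whether replicates are separate animals, so that p-values measure the spread between these libraries, which may be technical.

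Nuclear-retained RNAs act where they are made. Malat1 gathers in nuclear speckles, bodies rich in splicing factors, Neat1 builds the paraspeckle, a body of RNA-binding proteins, and Kcnq1ot1 is made from the paternal chromosome and silences neighbouring genes in cis. SnoRNA hosts work differently: their introns release snoRNAs that guide chemical modification of ribosomal RNA, while the spliced host is exported, often begins with a run of pyrimidines as mRNAs of ribosomal proteins do, and is degraded when ribosomes translate it, through nonsense-mediated decay.

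Start-site sequences are shown first because a pyrimidine run at the start has been described for several snoRNA hosts. Each stretch runs 5′ to 3′ on the transcribed strand over 60 bases, from 35 before the annotated start to 25 from it, and comes from RefSeq (GRCm38.p6). Capitals mark the longest unbroken run of C and T that begins with a C between the second base before the start and the third base counted from it. Of the 9 genes, 8 matched an entry in the promoter table. For Gas5 the second of its 2 annotated starts is shown; the run at the first was 1 base.

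Gas5, chr1:161035131-161035190, plus strand: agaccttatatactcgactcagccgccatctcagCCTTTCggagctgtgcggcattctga
Snhg1, chr19:8723452-8723511, plus strand: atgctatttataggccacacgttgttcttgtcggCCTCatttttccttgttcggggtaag
Snhg3, chr4:132353662-132353721, minus strand: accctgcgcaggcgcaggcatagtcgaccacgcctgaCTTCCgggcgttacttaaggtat
Snhg8, chr3:123508312-123508371, minus strand: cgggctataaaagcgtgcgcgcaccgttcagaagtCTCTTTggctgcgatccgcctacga
Snhg12, chr4:132308643-132308702, plus strand: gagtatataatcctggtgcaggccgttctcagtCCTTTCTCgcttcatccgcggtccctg
Malat1, chr19:5802648-5802707, minus strand: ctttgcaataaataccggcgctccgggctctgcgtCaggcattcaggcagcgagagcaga
Kcnq1ot1, chr7:143296523-143296582, minus strand: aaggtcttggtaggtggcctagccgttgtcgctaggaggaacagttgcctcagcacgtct

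The run was 8 bases in Snhg12, 6 in Gas5 and Snhg8, 5 in Snhg3 and 4 in Snhg1. It was 1 base in Malat1 and 0 in Kcnq1ot1. A run of 5 or more was thus found in 4 of the 5 host members, against 10.6% of 27025 genes with a promoter entry, 11.02% of 9533 long non-coding RNA genes and 36.1% of 61 genes of cytosolic ribosomal proteins. When the run had to begin at the annotated start itself, 2 of the 5 hosts kept it (Gas5 and Snhg8). The motif TATA, which reads the same on both strands, stood between 40 and 16 bases before the start in 4 of the 5 hosts (all but Snhg3) and in 7.02% of all genes. Of 13 other snoRNA hosts with an entry, 2 had a run of 5 or more and 2 had TATA in that window. TATA stood there in 9.84% of the genes of cytosolic ribosomal proteins. A match is a description of these letters and no evidence that a factor acts there.

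Counts were scaled by TMM, which corrects each library total for its composition, and are given as normalized CPM, counts relative to the scaled library total. Because libraries were primed on the poly(A) tail and read near the 3′ end, a level is not scaled by transcript length. Called means an adjusted p-value under 0.05 in edgeR's quasi-likelihood test with Benjamini-Hochberg adjustment over all 14110 genes. Of the 9 members, 2 were called higher with Dox (Malat1 and Neat1), 5 were called lower (the 5 hosts) and 2 were not called (Kcnq1ot1 and Dleu2). The groups of 3 libraries did not overlap in 7 of the 9. Over all genes 45.6% were called (23.6% higher and 22.1% lower) and 59.6% had groups that did not overlap, and since the contrast chose the members, nothing is read from their counts. Scaling by library size alone moved the calls over all genes to 4257 higher and 2359 lower, from 3324 and 3114, and left the members' calls as they were.

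**Figure D1:**
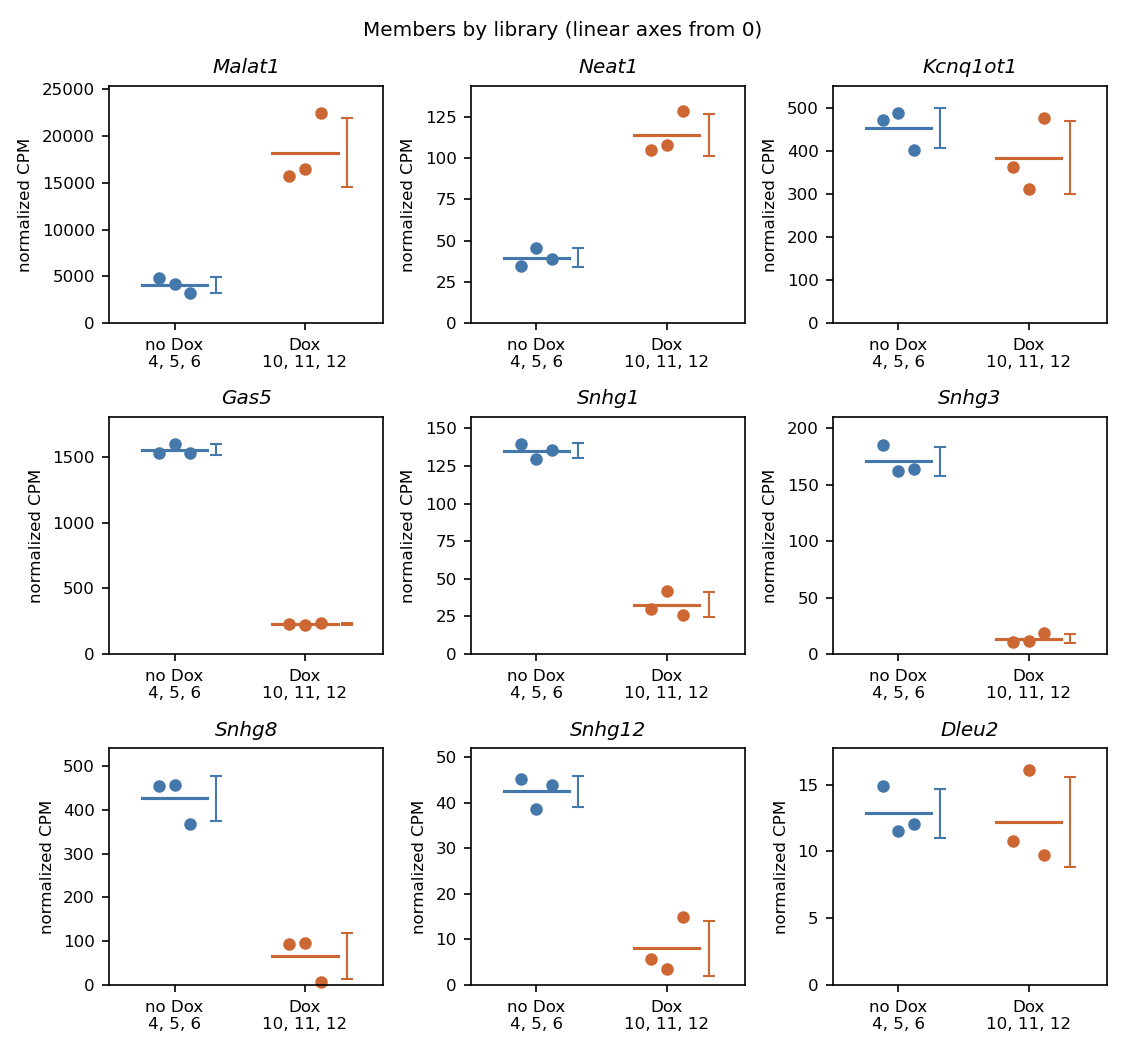
Normalized CPM of the 9 members (y axes, linear, from 0) in the 3 no-Dox and 3 Dox libraries, with points for libraries, lines for means and bars for SD. Malat1 and Neat1 sit higher in every Dox library, the 5 snoRNA hosts sit lower, and Kcnq1ot1 and Dleu2 overlap.

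Malat1 (chromosome 19, 5795690 to 5802672, minus strand) had 4844, 4171 and 3195 CPM without Dox and 15690, 16517 and 22525 CPM with Dox. Every Dox library stood well above every no-Dox library. Means were 4070 ± 829 and 18244 ± 3731 CPM (SD, n = 3), a log2 fold change of 2.16 ± 0.19 (SE). As a share of all counts it was 0.362% ± 0.062 and 2.01% ± 0.35. By raw count Malat1 ranked 15th, 19th and 30th among tested genes without Dox and 4th in each Dox library. In such bulk libraries a change in the number of cells of a type and a change in RNA per cell cannot be told apart.

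Neat1 (chromosome 19, 5824708 to 5845480, minus strand), the neighbour of Malat1, had 34.5, 45.8 and 38.8 CPM without Dox and 105, 108 and 128 CPM with Dox. The groups did not overlap, and counts were far fewer than those of Malat1. Its mean was 39.7 ± 5.7 and 114 ± 13 CPM (SD, n = 3), a log2 fold change of 1.52 ± 0.19. With the trend with transcript length removed, as described below, it was 0.05 and not called. Malat1 counts per Neat1 count numbered 141, 91.1 and 82.3 in the no-Dox libraries and 149, 153 and 175 in the Dox libraries, and the highest no-Dox value, of replicate 4, came close to the lowest with Dox. This ratio needs no library scaling.

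Kcnq1ot1 (chromosome 7, 143213111 to 143296547, minus strand), the long antisense RNA inside Kcnq1, had 472, 488 and 401 CPM without Dox and 362, 312 and 478 CPM with Dox. The groups overlapped, with replicate 12 inside the no-Dox range. Its log2 fold change was -0.24 ± 0.18, with means of 454 ± 46 and 384 ± 85 CPM. The sign changed to 0.07 when only library size was scaled, and without Dox replicate 12 the value was -0.45 and was called. Kcnq1 itself, on the other strand, had 6, 1 and 7 counts without Dox and 0, 20 and 22 with Dox, too few to be tested. Because the strand setting of the counting is not given in the sources used here, reads of Kcnq1ot1 and Kcnq1, Gas5 and Zbtb37, and Dleu2 and Trim13, which overlap on opposite strands, may not be told apart. Of the nuclear-retained RNAs, Kcnq1ot1 was thus the one whose groups were not apart.

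Gas5 (chromosome 1, 161034601 to 161038539, plus strand), which had the most counts of the hosts and is known for its accumulation in growth-arrested cells, had 1530, 1600 and 1530 CPM without Dox. With Dox it had 225, 221 and 233 CPM. The groups stood far apart and each was tight. Means were 1553 ± 40 and 227 ± 6.0 CPM (SD, n = 3), 6.85-fold lower with Dox, a log2 fold change of -2.78 ± 0.13.

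Snhg3 (chromosome 4, 132351933 to 132353686, minus strand), which carries the paired snoRNAs Snora73a and Snora73b, had 186, 162 and 164 CPM without Dox and 10.5, 11.8 and 18.4 CPM with Dox. It showed the widest gap of the 5 hosts, 12.6-fold lower with Dox. The log2 fold change was -3.65 ± 0.25. The protein-coding gene Rcc1, a regulator of nuclear transport that overlaps Snhg3 on the same strand, had 688, 494 and 695 counts without Dox and 272, 413 and 14 with Dox, and how reads of the shared stretch were divided is not given in the sources used here.

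Snhg1 (chromosome 19, 8723487 to 8726326, plus strand), host of 8 annotated snoRNA genes, had 140, 130 and 135 CPM without Dox and 30.1, 42.2 and 26.0 CPM with Dox. The groups did not overlap, and the log2 fold change was -2.04 ± 0.22, the smallest of the hosts. Slc3a2, an amino acid transporter subunit read in the other direction from 105 bases away, fell by 1.42 on the log2 scale (adjusted p = 0.00039, edgeR quasi-likelihood test).

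Snhg8 (chromosome 3, 123507552 to 123508336, minus strand) had 455, 456 and 367 CPM without Dox and 94.4, 97.0 and 6.33 CPM with Dox. All 3 Dox libraries were below the others, but replicate 12, with 48 counts, was 15.3-fold below replicate 11. Its log2 fold change of -2.69 ± 0.70 became -2.17 ± 0.15 without that library.

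Snhg12 (chromosome 4, 132308678 to 132311024, plus strand) had 45.1, 38.5 and 43.7 CPM without Dox and 5.72, 3.60 and 14.9 CPM with Dox. Here replicate 12 was the highest Dox library, and the groups again did not overlap. The log2 fold change was -2.40 ± 0.46, and -3.22 without replicate 12.

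Summed over the 5 hosts, their counts were 0.204%, 0.213% and 0.208% of each library without Dox and 0.0414%, 0.0419% and 0.0320% with Dox. Gas5 made up 65.0% to 68.3% of the sum without Dox and 58.9% to 78.0% with Dox. For each count in the 5 hosts there were 2.06, 1.75 and 1.43 counts in Malat1 without Dox, and 42.9, 43.9 and 75.4 with Dox. The hosts did not keep their proportions: Gas5 to Snhg3 went from 8.24 to 9.87 without Dox to 12.6 to 21.5 with Dox, and Gas5 to Snhg1 from 10.9 to 12.3 to 5.25 to 8.98. These ratios within a library do not depend on the scaling.

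Dleu2 (chromosome 14, 61602836 to 61682373, minus strand), a gene of the region deleted in chronic lymphocytic leukaemia, had 14.9, 11.6 and 12.04 CPM without Dox and 10.8, 16.1 and 9.75 CPM with Dox. The groups overlapped at a low level, with 57 to 156 counts per library. The log2 fold change was -0.07 ± 0.34, and 0.24 with library size alone. Its introns carry the microRNAs miR-15a and miR-16, which are known to lower Bcl2 and cyclins. They are shown because their seeds (bases 2 to 8, in capitals) are the same, AGCAGCA, in RefSeq.

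mmu-miR-15a-5p: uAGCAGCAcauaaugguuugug
mmu-miR-16-5p: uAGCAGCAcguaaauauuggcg

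Poly(A)-primed libraries do not measure mature microRNAs: the gene Mir15a had 0 counts in all 6 libraries and Mir16-1 had 4, 11 and 0 without Dox and 0 in all 3 with Dox. Trim13, a ubiquitin ligase gene overlapping Dleu2 on the other strand, was called lower (log2 fold change -2.04 ± 0.69, adjusted p = 0.035, edgeR quasi-likelihood test). Of 6 tested genes around Dleu2, 3 were called lower, among them Rnaseh2b at -0.93 ± 0.19, and 0 higher (0 also at an unadjusted p under 0.05, in DESeq2 and in limma-voom). The number lower was 1 without no-Dox replicate 4 or 5 and 1 with at least 10 counts in every library, and 1 gene was called higher with library size alone, with that filter and without Dox replicate 12. Of 8 tested genes in the imprinted domain of Kcnq1ot1, 1 was called, lower with Dox, the placental growth regulator Phlda2, which had 18, 23 and 37 counts without Dox and 0, 0 and 1 with Dox (named after its values were seen). With library size alone 1 gene of that domain was called higher.

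The snoRNA genes inside the hosts are separate entries of the table, outside the 9, and their counts did not follow those of the hosts in Snhg1, Snhg3 and Snhg12. Snhg1's 8 snoRNA genes had 122, 77 and 139 counts without Dox and 185, 347 and 186 with Dox, while Snhg1 itself was 4.12-fold lower in CPM. As a share of the host's counts this was 12.01% to 17.4% without Dox and 83.7% to 94.4% with Dox. Both snoRNA genes of Snhg3 together had 49, 29 and 47 counts and then 76, 84 and 95, or 3.63% to 4.86% and 67.9% to 98.7% of the host.

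In Snhg12 the 4 snoRNA genes had 28, 30 and 27 counts without Dox and 31, 24 and 45 with Dox, going from 9.27% to 15.8% of the host to 39.8% to 73.8%. Gas5 differed in level: its 8 annotated snoRNA genes had 156, 110 and 130 counts and then 86, 47 and 64, a mean of 22.5 ± 0.66 and 8.33 ± 3.43 CPM. Relative to Gas5 counts this was 1.39% to 1.52% without Dox and 2.18% to 5.19% with Dox. In all 4 hosts the share was higher in every Dox library than in every no-Dox library, whereas Snora24 of Snhg8 had 0 counts in all 6 libraries, where 3 counts correspond to 0.344 to 0.541 CPM. Reads in these genes can come from snoRNA, unspliced host or the intron, which the table does not separate. Of 1330 snoRNA genes in the table, 997 had 0 counts in all libraries. Counts of snoRNA genes in these poly(A)-primed libraries are therefore not taken as levels of snoRNA. As single genes, 7 of the snoRNA genes inside Snhg1, Snhg3 and Snhg12 had enough counts to be tested, and 0 were called. Among them were Snord22 of Snhg1 (log2 fold change 0.98 ± 0.64), Snora73b of Snhg3 (0.58 ± 0.42) and Snora44 of Snhg12 (0.80 ± 0.99). The filter on low counts leaves out genes such as Snora16a of Snhg12, with 3, 4 and 5 counts without Dox and 0 in each Dox library, so the direction of those tested is not read as that of all. Of 5 tested inside Gas5, 1 was called lower. At an unadjusted p under 0.05 the numbers were 0 of the 7 (0 also in DESeq2 and in limma-voom) and 2 of the 5 in Gas5, with edgeR's quasi-likelihood test.

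**Figure D2:**
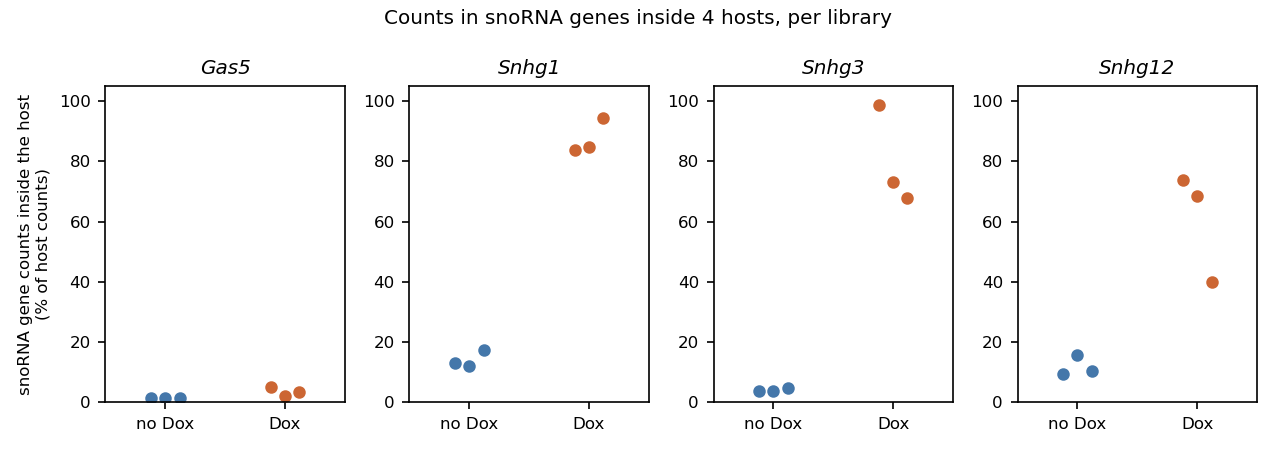
Counts in the snoRNA genes inside Gas5, Snhg1, Snhg3 and Snhg12 as a percent of the host's own counts (y axis) in each no-Dox and Dox library (points). The share is higher in every Dox library, reaching 94.4% in Snhg1 and 98.7% in Snhg3, while it is at most 5.19% in Gas5. Host counts, the denominator, were lower with Dox.

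Hosts outside the 9 showed both patterns. Of 3 other long non-coding hosts with at least 100 counts in their snoRNA genes over the 6 libraries (Snhg15, Zfas1 and Epb41l4aos), 0 had a share that was higher in every Dox library. Just under that minimum, Snhg5 with 87 counts did, and for Snhg6 with 90 no share can be given in Dox replicate 12, where the host had 0 counts. Of 6 protein-coding hosts with at least 100 counts, 3 had a higher share in every Dox library. Just under the minimum, Eef2 with 84 counts did and Rack1 with 86 did not. Among the 3 was Eif4a2, a translation initiation factor, whose 5 snoRNA genes had 225, 192 and 187 counts without Dox and 4466, 5620 and 14534 with Dox, mostly in Snora81. The host itself had 328, 227 and 354 and then 182, 301 and 212 counts. Over all 78 tested snoRNA genes 12 were called higher, 5 lower and 61 not called, beside 23.6% higher and 22.1% lower over all genes.

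**Figure D3:**
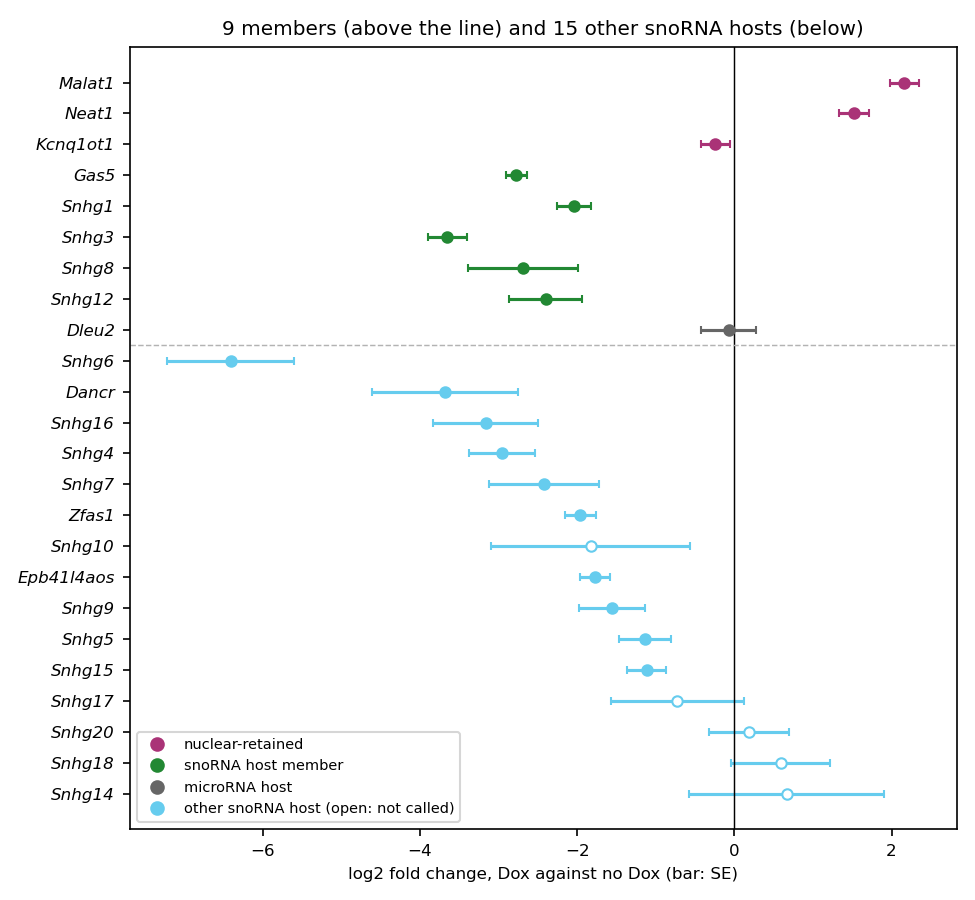
Log2 fold change with Dox (x axis, bars for SE) of the 9 members and of 15 other long non-coding snoRNA hosts, open where not called. All 5 host members lie below 0, as do 12 of the 15 other hosts, with Snhg6 farthest at -6.40.

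Other snoRNA hosts were listed to see how far the members' direction extended. Of 15 tested, 10 were called lower and 0 higher (0 also at an unadjusted p under 0.05, in DESeq2 and in limma-voom), with a median log2 fold change of -1.77 beside 0.07 over all genes and 1.07 over 1328 long non-coding RNA genes (409, or 30.8%, called higher and 99, or 7.45%, lower). With the trend with transcript length removed, 6 of 13 were called lower and the median was -0.98. Snhg6 had 1865, 1340 and 1320 counts without Dox and 59, 13 and 0 with Dox, a mean of 258 ± 30 and 3.12 ± 4.30 CPM, and its log2 fold change was -6.40 ± 0.81 (adjusted p = 0.00016, edgeR quasi-likelihood test). Zfas1, named for its place antisense to Znfx1, went from 334 ± 14 to 86.0 ± 19.8 CPM.

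Dancr (log2 fold change -3.68), Snhg16 (-3.16), Snhg4 (-2.95) and Snhg7 (-2.42) were called lower, as were Epb41l4aos (-1.77), Snhg9 (-1.56), Snhg5 (-1.14) and Snhg15 (-1.11). Snhg10 (-1.83), Snhg17 (-0.73), Snhg20 (0.18), Snhg18 (0.59) and Snhg14 (0.67) were not called, each with a mean under 10 CPM in both groups. Of 20 protein-coding hosts, 16 were called lower and 1 higher (median -1.18). With library size alone 11 were lower and 2 higher, and 2 were also higher without Dox replicate 11 and with at least 10 counts in every library. Eif4a1, the helicase of translation initiation, changed by -2.76 ± 0.37 and Eef1b2, an elongation factor subunit, by -2.12 ± 0.16. Nfrkb, a subunit of a chromatin remodelling complex, was called higher, at 1.64 ± 0.22.

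Among proteins that bind or assemble snoRNA particles, 14 of 19 were called lower and 0 higher (0 also at an unadjusted p under 0.05, in DESeq2 and in limma-voom), with a median of -1.65. With the trend with transcript length removed, 1 was called higher. Gar1, a core protein of the H/ACA particle, went from 214 ± 7.3 to 30.6 ± 22.3 CPM, and Ruvbl2, an ATPase that helps assemble these particles, from 40.9 ± 7.0 to 5.85 ± 2.59 CPM. Among 19 factors of nonsense-mediated decay, 6 were called higher and 5 lower (median 0.26). Smg1, the kinase that starts the pathway, was higher at 187 ± 26 against 67.1 ± 9.9 CPM, and Smg9, its partner, changed by 1.29 ± 0.32, while Eif4a3 and Magohb of the exon junction complex changed by -2.08 ± 0.25 and -3.11 ± 0.39. The number higher was 10 with library size alone, 3 without no-Dox replicate 4 or 5, 3 at an adjusted p under 0.01 and 2 with the trend with transcript length removed, each with 5 lower.

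Other chromatin-bound or nuclear long RNAs had 4 of 17 tested genes called higher and 0 lower (median 0.51). This share, 23.5%, was near the 23.6% called higher over all genes. It was below the 30.8% over long non-coding RNA genes, whose median was 1.07 (0.07 over all genes). At an unadjusted p under 0.05 there was 1 lower gene, and 0 in DESeq2 and in limma-voom. With library size alone 7 were called higher. The 4 called higher in the main fit were Xist, which coats the inactive X chromosome, Ftx, its neighbour, Lncpint and Rn7sk, the RNA that holds back a transcription elongation factor. Ftx and Lncpint were named after their values were seen. Rn7sk went from 26.6 ± 5.3 to 55.5 ± 10.6 CPM (log2 fold change 1.06 ± 0.24). Tug1 and Norad, listed for comparison, were at 0.51 ± 0.23 and -0.39 ± 0.17 and were not called. Xist had 193 to 324 counts without Dox and 3347 to 5669 with Dox, and genes of the Y chromosome had 545 to 801 counts and 0 in all 3 Dox libraries, so these sex-linked RNAs differed between the groups together with Dox, and whatever moves with them and with Dox cannot be told apart.

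Partners of the nuclear RNAs did not move as 1 group. Of 30 paraspeckle proteins, 3 were called higher and 13 lower (median -0.50): Rbm3, a cold-inducible RNA-binding protein, went from 781 ± 51 to 147 ± 6.1 CPM, while the helicase Ddx17 changed by 1.22 ± 0.16 and Zc3h6 by 1.15 ± 0.24. Of 28 nuclear speckle proteins, 7 were higher and 10 lower (median 0.08). The number higher was 12 with library size alone (8 lower), 4 with no low-count filter, 2 and 3 without no-Dox replicates 5 and 6, and 3 with the length trend described below removed (11 lower). U2af1 and U2af2, which bind the 3′ splice site, changed by -2.70 ± 0.17 and -2.02 ± 0.17, and Clk1, a kinase of splicing factors, by 1.79 ± 0.22. Acin1, a speckle scaffold, changed by 0.74 ± 0.15.

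**Figure D4:**
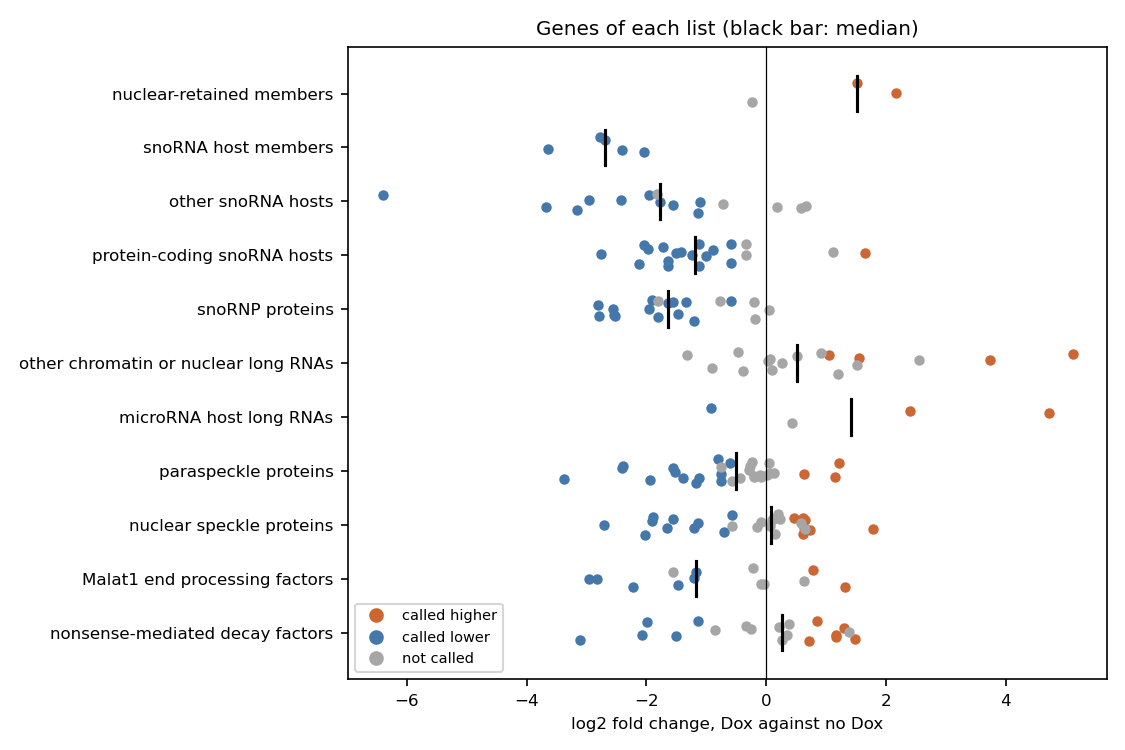
Log2 fold change with Dox (x axis) of each tested gene in the member groups and 9 of the wider lists, coloured by call, with a black bar for the median. The host and snoRNP lists lie mostly below 0, with medians from -2.69 to -1.18, while the speckle and decay lists spread to both sides of 0.

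Among 13 tested factors listed for processing or binding Malat1, most for its 3′ end, 2 were called higher and 6 lower (median -1.17). Neither higher call was kept when any 1 no-Dox library was left out, or at an adjusted p under 0.01 (0 higher in each), and 1 gene of the list was called higher without Dox replicate 10 or 11. Malat1 is not polyadenylated as mRNAs are: RNase P cuts it upstream of a small RNA folded like a tRNA, and a triple helix holds the new end. Of the RNase P subunits named by the rule, Rpp30 changed by -2.23 ± 0.39 and Rpp38 by -2.96 ± 0.60, while Pop7 had 1.31 ± 0.44 with overlapping groups. Ythdc1, a reader of N6-methyladenosine, changed by 0.77 ± 0.22.

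The end of Malat1 is shown because these libraries were primed on runs of A. The capitals mark a run of 12 A in the transcript, beginning at base 6674 and ending 298 bases before the annotated end, at chr19:5795928-5796029 on the minus strand (GRCm38).

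Malat1 end: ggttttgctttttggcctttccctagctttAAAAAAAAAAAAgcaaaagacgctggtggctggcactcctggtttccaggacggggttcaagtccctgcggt

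A run of 10 or more A occurs in 7.18% of 141767 annotated transcripts. Kcnq1ot1 holds 10 such runs, the longest of 41. Some transcripts of the host Snhg12 hold a run of 12, and some of Dleu2 hold runs of up to 13 or 16. Whether any counts of these genes or of Malat1 came from such runs cannot be seen in counts per gene and was not tested.

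Transcript length moved with the fold changes. Over 12936 genes with a length (91.7% of those tested), the median log2 fold change was -0.65 among the shortest 20% (up to 1803 bases) and 0.54 among the longest (from 5222 bases). Neat1 was near the trend for its longest transcript of 20771 bases: with the trend removed its log2 fold change was 0.05 and it was not called, but with the 3004 bases of the short isoform it was 1.62 above the trend. Malat1 remained at 1.62, and the hosts at -2.76 to -1.80, with Snhg8 (-1.80 ± 0.68) no longer called. Kcnq1ot1 was at -2.62 and was then called lower, at a length where only 3 tested genes have transcripts of 50000 bases or more and the trend is poorly set. The part of length in the members' differences was not tested further.

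**Figure D5:**
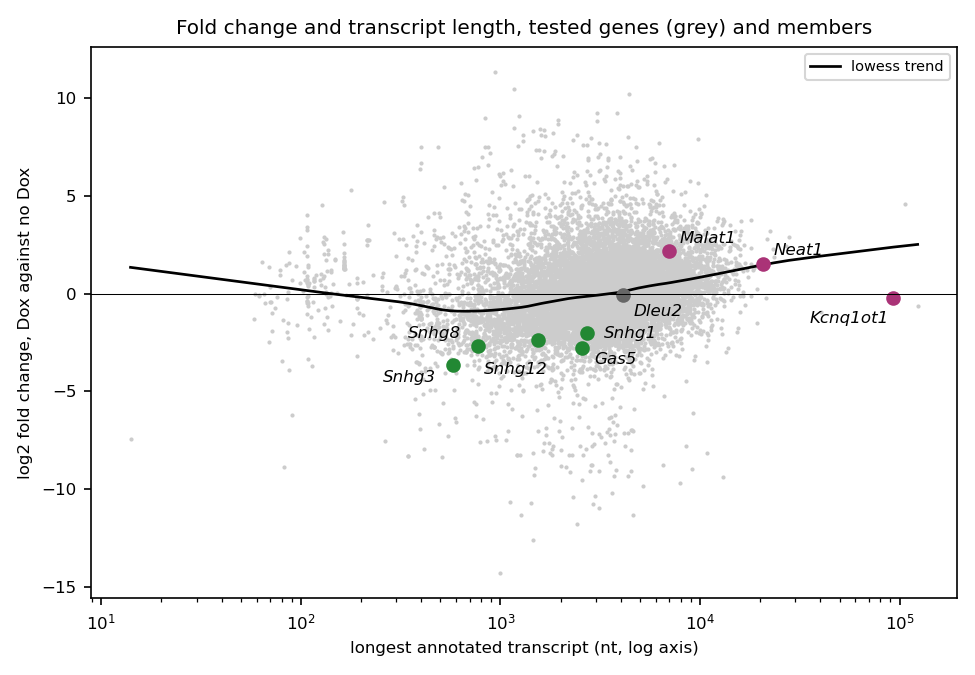
Log2 fold change with Dox (y axis) against the longest annotated transcript (x axis, log scale) for tested genes (grey), with the lowess trend (line) and the 9 members named. Malat1 lies 1.62 above the trend, Neat1 lies on it, and the 5 hosts lie below it by 1.80 to 2.76.

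Within groups the median coefficient of variation of the members was 10.2% without Dox and 25.8% with Dox. Genes of like level also varied more with Dox, with medians of 7.68% and 17.1% at the level of Gas5 in each group, so this is not particular to the members. Neat1 varied less with Dox (14.4% and 11.1%). Gas5 had 2.59% and 2.65%, the latter beside a median of 17.1% over 487 genes of like level in the Dox libraries, of which 1.85% varied less. Malat1 had 20.4% in both groups. Snhg8 was the most variable of the 9 with Dox, at 78.3% beside 19.3% for genes of like level, and Snhg12 was next at 74.4% beside 42.2%.

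Profiles most like that of Malat1 were sought by the Euclidean distance between mean-centred log2 CPM over the 6 libraries, among 7047 genes of at least median level. This distance largely follows the Dox contrast that chose the members. Log2 fold changes were 2.31 to 2.49 in the 5 genes nearest to Malat1 and -2.82 to -2.74 in those nearest to Gas5. Likeness is thus mostly a like fold change, and shared control was not tested. The 5 nearest were Myh11, a smooth muscle myosin (distance 0.23), Mirt1, a long non-coding RNA (0.29), Cfb, a complement factor (0.29), Ubash3b, a phosphatase (0.33), and Agfg2 (0.35). Neat1 stood at 1.01 and Gas5 at 6.07. For Gas5 the nearest were Rps27a, a ubiquitin and ribosomal protein fusion (0.09), which went from 2272 to 322 CPM, Hspe1, a mitochondrial chaperonin (0.16), and the near-identical copies Gm8158, Gm8112 and Gm8137 (0.21 each), whose reads may be shared. Zbtb37, a zinc finger gene overlapping Gas5 on the other strand, was called higher at 1.42 ± 0.29, and Trnau1ap, 738 bases from Snhg12, at 0.83 ± 0.26.

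The cell mixture also differed between the groups. Summed T cell markers (13 of 15 called lower) ranged from 3842 to 4124 CPM without Dox and from 349 to 437 CPM with Dox. B cell markers (12 of 13 higher, 1 lower) went from 349 to 407 up to 2732 to 3020 CPM, and neutrophil and monocyte markers (12 of 13 higher) from 170 to 187 up to 2012 to 2151 CPM, with Ly6g at 0 in every no-Dox library. Proliferation genes (8 of 12 lower) ranged from 4689 to 5164 and from 3223 to 3863 CPM, and haemoglobin genes held 8.87% ± 0.23 and 15.3% ± 0.98 of counts. Red pulp macrophage markers had 3 of 9 called lower, and erythroid markers 5 of 11 higher and 2 lower. The part of these differences in the levels of Malat1, Neat1 and the hosts was not tested.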

How the data were processed

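The authors deposited 1 table of raw counts per Entrez gene ID for 6 spleen libraries made with a forward 3′ mRNA kit, per the labels' protocols. STAR, featureCounts and GRCm38 are named in the submitters' processing notes; versions, strand setting, multimapping and use of molecular identifiers are not given in the sources used here. No count column was left unused (0). Library totals were 5541486 to 8725767 counts, and intervals of counting error do not cover PCR duplicates.

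Symbols (96.5% of gene IDs) and start-site sequences came from RefSeq (GRCm38.p6), transcripts from GENCODE. After filterByExpr (counts of at least 10, totals of at least 15), genes were compared with edgeR 4.0.16 in R 4.3.3 (TMM, quasi-likelihood, 3 against 3, no covariate); limma 3.58.1 and DESeq2 1.42.0 were alternatives. Standard errors are the log2 fold change over the root of its F value. Replicates differed by more than sampling noise, with a chi-square of 7.29 or more per degree of freedom in every pair. On simulated counts for 14110 genes, 67.2% of 189 genes changed by 2 on the log2 scale were called, each in its simulated direction. Of 13269 genes left unchanged, 11 were called. The simulation changed few genes, as many up as down, and gave both groups the same dispersion. These data differ in both, so its rates need not carry over.

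The members and all lists were chosen with earlier results of these data known. Named genes were every member, every tested gene of the other snoRNA host list, neighbours of members, the 5 profiles nearest to Malat1 and to Gas5, and from each other list up to 2 genes called in each direction with the largest change and at least median level; exceptions are marked, and 1 gene that the rule takes is not reported here. Of 291 list symbols, 2 were not found.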

Additional observations from a re-analysis of the deposited data

How the results depend on the processing

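All 5 hosts and Malat1 kept their sign in each of the 15 alternative fits, and Neat1 was called higher in 14 of them; log2 fold changes without 1 library ranged from 1.92 to 2.26 for Malat1, 1.38 to 1.57 for Neat1, -2.88 to -2.78 for Gas5, -2.29 to -1.92 for Snhg1, -3.95 to -3.52 for Snhg3, -3.10 to -2.17 for Snhg8 and -3.22 to -2.07 for Snhg12. Among these fits calls were lost only with the length trend removed (chosen after seeing the data), for Neat1 and Snhg8, and Snhg8 also missed a threshold of 0.01. With the trend removed Kcnq1ot1 (-2.62) was called lower, as it was without Dox replicate 12, while 1 member was called higher, the median of the nuclear-retained RNAs was 0.052 and that of the hosts -1.90, from 1.52 and -2.69. With library size alone the nuclear-retained median was 1.83, and the median of all genes shifted by 0.31. At an adjusted p of 0.01, 2200 genes were higher instead of 3324. Over the 11 lists, 25 genes were higher; the count was 40 (with 64 lower instead of 77) with library size alone, 16 at an adjusted p of 0.01, and 12 to 29 without 1 library (16, 12 and 15 without no-Dox replicates 4, 5 and 6). Other hosts called lower numbered 10, and 6 both with at least 10 counts in every library, where 7 could be tested, and with the length trend removed, where 13 could. A pyrimidine run of 5 or more was found in 4 host members, and in 2 when it had to begin at the start site. No paired analysis was possible because replicate numbers 4 to 6 and 10 to 12 have none in common. Depth limits the low members most: Snhg12, Dleu2 and Snhg3 had down to 35, 57 and 77 counts (the 48 counts of Snhg8 stand in 1 Dox library, beside 694 and 942), and the Dox libraries were more dispersed, with a median variance over mean of 12.4 against 2.72 without Dox.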
